A study of Mus musculus with 10 samples.

Results

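The 35 genes described here encode proteins that copy DNA or divide the cell. They were matched by symbol among the 55487 genes of a count table of sorted GFP-positive mouse brain cells, and each was found once. Of the 35, 22 act mainly in mitosis and 13 in DNA replication, nucleotide supply or entry into S phase. RNA came from 10 libraries in 3 groups. The control group, NC-GFP (n = 3), was CamKIIcre/- mice injected with AAV-FLEX-GFP, an adeno-associated virus whose GFP cassette is switched on by Cre recombinase. The cKO-GFP group (labelled TDP-43cKO-GFP, n = 3) was TDP-43flox/flox::CamKIIcre/- mice given the same virus. The cKO-mNLS group (labelled TDP-43cKO-TDP-43mNLS, n = 4) was mice of that genotype given AAV-FLEX-TDP-43mNLS-GFP. All 3 groups therefore carried CamKII-Cre, whose promoter is active mainly in excitatory neurons of the forebrain, and all had virus in the dentate gyrus 1 month before sorting. Each library was a pool of 3 to 4 animals, whose age the labels do not give, so p-values measure the spread between pools. The gene Tardbp encodes TDP-43, which binds RNA and controls its splicing and stability. By its title the study concerned the role of TDP-43 of neurons in the making of myelin.

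A cell that divides first licenses its replication origins with the MCM helicase, then copies its DNA in S phase, and then builds a spindle and separates the chromosomes in mitosis. Most genes of this programme are read mainly in cycling cells. E2F factors act on many replication genes near G1 and S phase, and the MuvB complexes act on many mitotic genes later in the cycle. Mature neurons and mature oligodendrocytes have left the cycle. In the adult brain the cycling cells include oligodendrocyte precursors, neural progenitors of the dentate gyrus, microglia and invading immune cells.

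The promoters of these genes are known for 3 short motifs, and 7 promoters are printed to show them in genes whose values carry the results below. The motifs were the CCAAT box (CCAAT), the cell cycle homology region or CHR (TTTGAA or TTCGAA) and the E2F site (TTTCCCGC, TTTGGCGC, TTTCGCGC or TTTGCCGC), searched on both strands, with matches in capitals and overlapping matches printed as 1 run. Each window is the 250 bases before the RefSeq start of the gene (build GRCm38.p6), written 5′ to 3′ on the strand of the gene. Top2a, Ccnb2, Rrm2 and Prc1 were lower in cKO-mNLS than in both other groups, Mcm2 passed the test in cKO-GFP against control, Mcm6 holds E2F matches, and Cdk1 holds all 3 motifs and passed no test.
Top2a, chr11:99024190-99024439, minus strand: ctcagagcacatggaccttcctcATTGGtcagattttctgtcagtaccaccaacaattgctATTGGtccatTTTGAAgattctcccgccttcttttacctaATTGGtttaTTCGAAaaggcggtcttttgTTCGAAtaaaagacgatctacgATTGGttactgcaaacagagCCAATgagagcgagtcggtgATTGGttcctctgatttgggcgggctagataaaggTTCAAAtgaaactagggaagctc
Ccnb2, chr9:70421555-70421804, minus strand: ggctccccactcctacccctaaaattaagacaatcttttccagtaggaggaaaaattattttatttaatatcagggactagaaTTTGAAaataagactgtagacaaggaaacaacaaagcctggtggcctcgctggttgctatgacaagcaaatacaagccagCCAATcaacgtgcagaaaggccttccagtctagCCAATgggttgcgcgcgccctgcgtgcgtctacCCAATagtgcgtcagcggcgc
Rrm2, chr12:24708004-24708253, plus strand: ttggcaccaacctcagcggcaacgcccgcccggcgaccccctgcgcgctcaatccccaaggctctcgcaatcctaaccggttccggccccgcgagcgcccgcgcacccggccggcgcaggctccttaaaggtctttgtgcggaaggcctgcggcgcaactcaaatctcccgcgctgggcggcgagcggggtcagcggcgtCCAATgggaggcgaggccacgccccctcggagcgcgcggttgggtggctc
Prc1, chr7:80294201-80294450, plus strand: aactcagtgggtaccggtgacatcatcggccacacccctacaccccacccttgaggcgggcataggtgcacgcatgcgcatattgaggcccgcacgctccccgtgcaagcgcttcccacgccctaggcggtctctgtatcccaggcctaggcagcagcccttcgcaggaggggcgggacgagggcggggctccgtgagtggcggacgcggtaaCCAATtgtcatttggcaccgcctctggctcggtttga
Mcm2, chr6:88898781-88899030, minus strand: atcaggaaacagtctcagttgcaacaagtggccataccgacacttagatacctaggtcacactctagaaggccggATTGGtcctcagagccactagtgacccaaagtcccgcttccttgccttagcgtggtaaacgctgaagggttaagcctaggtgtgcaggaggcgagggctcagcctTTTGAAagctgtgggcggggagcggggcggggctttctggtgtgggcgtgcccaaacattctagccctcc
Mcm6, chr1:128359706-128359955, minus strand: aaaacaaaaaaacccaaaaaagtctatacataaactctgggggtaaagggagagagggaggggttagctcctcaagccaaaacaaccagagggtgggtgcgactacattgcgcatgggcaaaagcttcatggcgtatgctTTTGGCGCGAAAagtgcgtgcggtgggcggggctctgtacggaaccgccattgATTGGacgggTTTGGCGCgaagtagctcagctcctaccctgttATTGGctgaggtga
Cdk1, chr10:69352913-69353162, minus strand: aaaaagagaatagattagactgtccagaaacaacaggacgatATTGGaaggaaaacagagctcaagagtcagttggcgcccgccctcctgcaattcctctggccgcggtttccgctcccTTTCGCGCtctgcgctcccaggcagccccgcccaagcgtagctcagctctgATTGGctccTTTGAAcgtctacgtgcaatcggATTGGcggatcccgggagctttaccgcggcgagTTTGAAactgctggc

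RefSeq promoters were matched for 29 of the 35 genes. A CCAAT box lay in 24 of the 29 windows (82.8%), against 34.5% of the windows of 27025 genes in the same table. A CHR lay in 10 of 29 (34.5%), against 17.4% of all, and all 10 of those windows also held a CCAAT box, a pair found in 6.21% of all windows. An E2F match lay in 5 of 29 (17.2%), against 1.91% of all. The CHR was in 8 of 18 windows of mitosis genes and in 2 of 11 windows of replication genes, while the E2F match was in 1 of 18 and in 4 of 11. These shares describe the letters in the windows and are no measure of binding.

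Library totals ranged from 17164162 to 29204279 counts, and 20379 genes, with all 35 described here, passed the filter on low counts. Levels per library are CPM values, each count divided by the scaled library total, and fold changes, in parentheses with their SE, are on the log2 scale. Tardbp stood at 143, 128 and 121 CPM in NC-GFP, 120.4, 122 and 108 CPM in cKO-GFP and 206, 218, 337 and 185 CPM in cKO-mNLS. No difference was called between cKO-GFP and control (-0.16, SE 0.20, edgeR adjusted p = 0.745), while cKO-mNLS exceeded cKO-GFP (1.02, SE 0.20, adjusted p = 0.00642). The deposited counts cover whole genes, so they are no check of a deletion of part of Tardbp. The virus of cKO-mNLS itself carries TDP-43mNLS, and whether its transcripts were counted as Tardbp is not known. The labels describe the sort only as GFP-positive cells, so which cell types each library held is not known, and each level is that of the cells sorted. Excitatory neuron markers differed widely among themselves in the groups given GFP alone. Slc17a7, the vesicular glutamate transporter of these neurons, reached 0.996 CPM at most in NC-GFP and 6.86 CPM in cKO-GFP, but 46.3 to 157 CPM in cKO-mNLS. Prox1, a transcription factor of dentate granule neurons, was at 175 to 217 CPM in NC-GFP, 105 to 192 CPM in cKO-GFP and 135 to 308 CPM in cKO-mNLS and passed in none of the 3 comparisons. Map2, a microtubule protein of neurons, was at 134 to 136 CPM in NC-GFP and 61.7 to 93.8 CPM in cKO-GFP. Mbp, a myelin protein of oligodendrocytes, was at 1565 to 1931 CPM in NC-GFP, 1066 to 1848 CPM in cKO-GFP and 915 to 1683 CPM in cKO-mNLS. In bulk samples of this kind, fewer cells of a type and less RNA per cell cannot be told apart.

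Between the 35 genes, levels are compared as the TPM of the authors, which is scaled per length. Pcna, the sliding clamp that holds the polymerase on DNA, had the highest mean over the 10 libraries at 17.5 TPM, followed by Mcm7 at 6.93 TPM and Rrm1 at 4.63 TPM. Mki67, the gene of the proliferation marker Ki-67, was seventh at 3.09 TPM and Top2a was eighth at 2.87 TPM. The lowest mean was that of Bub1 at 0.204 TPM. The 6 highest all belong to the replication side, and the mitotic genes other than Mki67 and Top2a lay under 2 TPM.

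Summed over the 35 genes, cKO-GFP libraries were the highest and cKO-mNLS libraries the lowest. The sum was 306, 335 and 281 CPM in NC-GFP (307 ± 26.7, SD, n = 3), 674, 356 and 561 CPM in cKO-GFP (530.5 ± 161, SD, n = 3) and 273, 213.0, 252 and 216 CPM in cKO-mNLS (238 ± 29.2, SD, n = 4). The 3 groups did not overlap in this sum, although cKO-GFP replicate 2 lay close to the highest control library. For the 22 mitosis genes the means were 138 ± 10.9 CPM in NC-GFP, 263 ± 99.95 CPM in cKO-GFP and 94.5 ± 36.9 CPM in cKO-mNLS. For the 13 replication genes they were 169 ± 17.1, 268 ± 61.2 and 144 ± 16.2 CPM. In both parts cKO-mNLS and NC-GFP overlapped. Mitosis genes were at 53.1 to 142 against 131 to 151 CPM, and replication genes at 130 to 162 against 150 to 184 CPM. CPM is not scaled for length, and Mki67 alone had means of 52.0, 105 and 43.6 CPM within the mitosis sums.

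**Figure D1:**
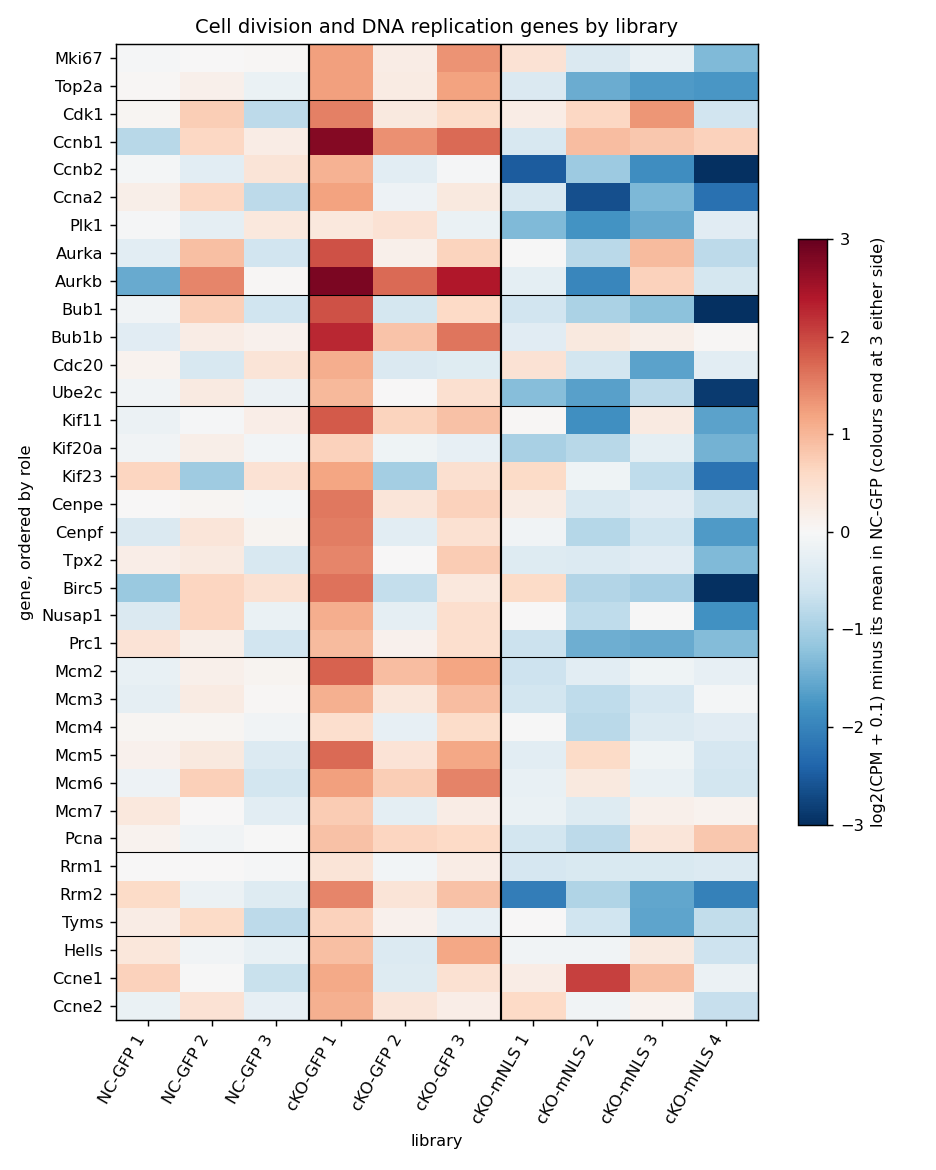
Each row is 1 of the 35 genes, ordered by role, and each column 1 library. Colour gives log2(CPM + 0.1) minus its mean in the NC-GFP libraries, and colours end at 3 in either direction. The cKO-GFP replicate 1 column is the highest of all libraries for 29 of the 35 genes.

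In cKO-mNLS against cKO-GFP, 18 of the 35 genes fell and none rose at an edgeR adjusted p under 0.05, which is 51.4% of them. Over all genes tested, 7.13% fell. At an unadjusted p under 0.05, 24 were lower and 0 higher, against 2888 lower and 3152 higher of the 20379 genes tested. The median log2 fold change of the 35 was -1.27, beside -0.01 over all genes tested, and 34 of the 35 values were below 0. For 19 genes each cKO-mNLS library lay under each cKO-GFP library, which held for 12.4% of all genes. The count of 18 became 4 without cKO-GFP replicate 1, 6 without cKO-GFP replicate 3 and 11 without cKO-mNLS replicate 2, and lay between 13 and 21 without any 1 of the other libraries. The call was kept in each of the 10 fits with a library left out for 4 genes: Top2a, Mcm2, Mcm3 and Rrm2.

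**Figure D2:**
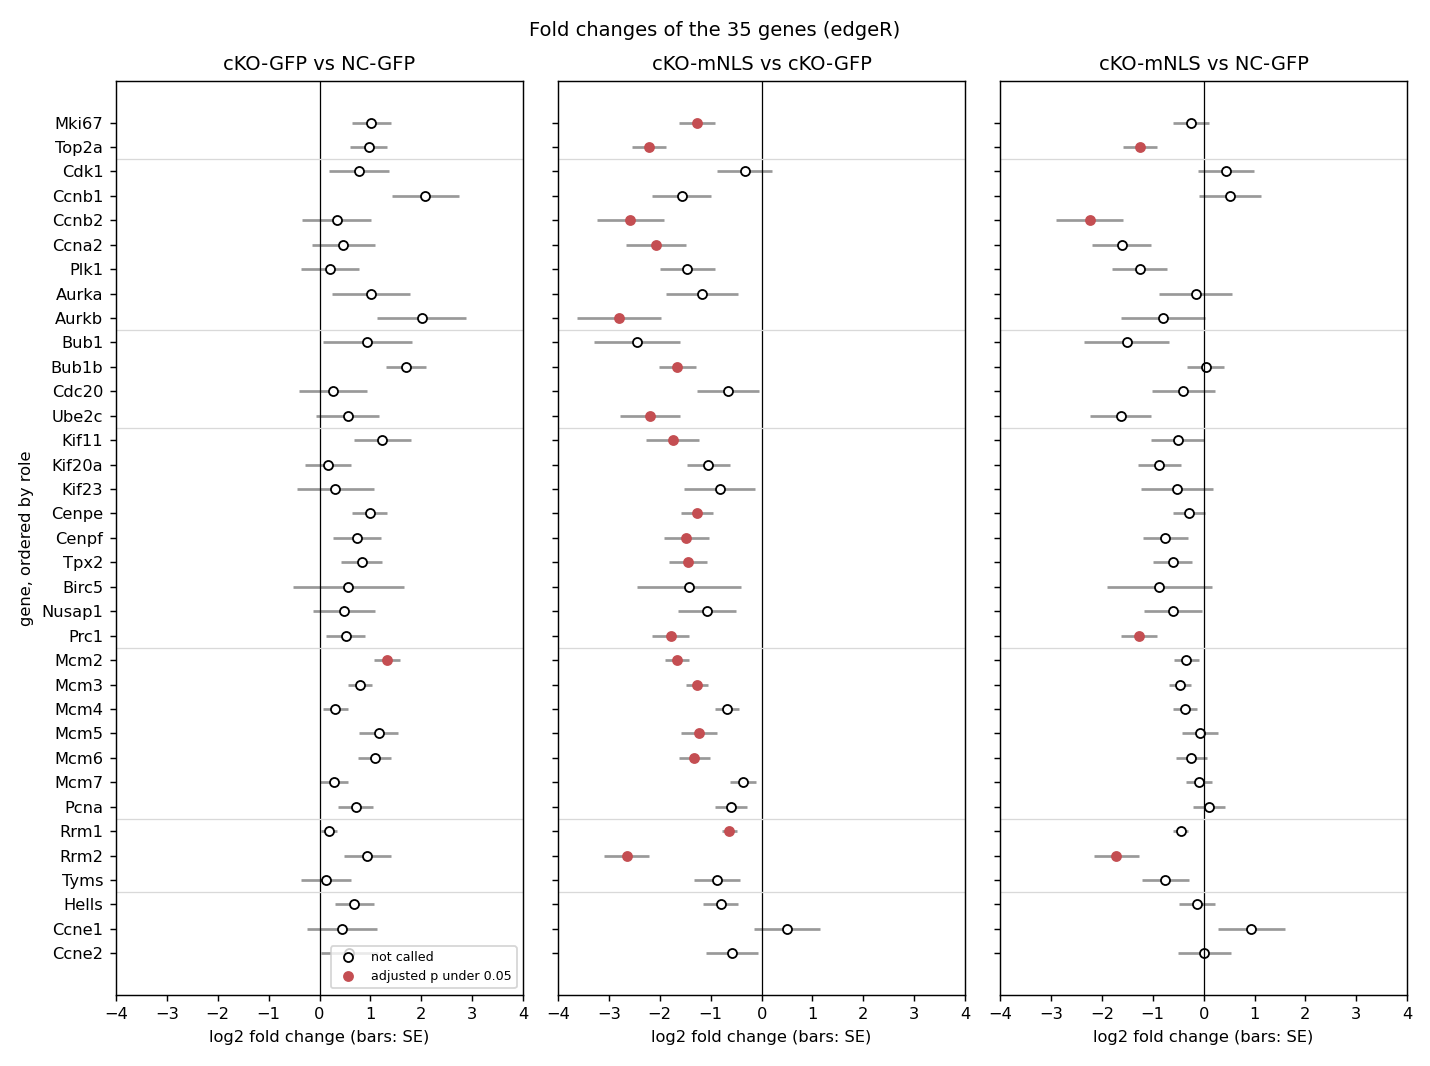
Points give the edgeR log2 fold change of each of the 35 genes in the 3 comparisons, bars its SE, and filled points an adjusted p under 0.05. There are 1, 18 and 4 filled points from left to right, and 34 of 35 points lie below 0 in the middle panel.

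In cKO-GFP against NC-GFP, 1 of the 35 genes, Mcm2, rose at an adjusted p under 0.05 (2.86%, against 0.53% of all genes tested). At an unadjusted p under 0.05, 11 genes were higher and none lower, against 1982 higher and 1443 lower of the 20379 genes tested. All 35 fold changes were above 0, with a median of 0.71 beside 0.04 over all genes tested. Without cKO-GFP replicate 1, 25 of the 35 were above 0 and the median was 0.23. For 12 genes each cKO-GFP library lay above each control library, against 13.6% of all genes. They were Mki67, Top2a, Ccnb1, Aurkb, Bub1b, Kif11, Cenpe, Mcm2, Mcm3, Mcm5, Mcm6 and Pcna. The count of non-overlapping genes was 20 without cKO-GFP replicate 2, but a range narrows when a library is left out, which favours a higher count. DESeq2 called 5 of the 35 and voom with quality weights called 10. Over all genes tested these 2 methods also called more, 1391 and 1506 against 333 with edgeR.

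In cKO-mNLS against NC-GFP, 4 genes fell (11.4%, against 3.25% of all genes tested) and none rose: Top2a, Ccnb2, Prc1 and Rrm2. At an unadjusted p under 0.05, 8 were lower and 0 higher, against 2102 lower and 3008 higher of the 20379 genes tested. The median of the 35 was -0.47 beside -0.02 over all genes tested. The ranges of 8 genes did not overlap, all lower in cKO-mNLS (10.8% of all genes), and these were Top2a, Ccnb2, Plk1, Ube2c, Kif20a, Prc1, Rrm1 and Rrm2. This count was 13 without NC-GFP replicate 3 and 15 without cKO-mNLS replicate 1, where the narrower ranges by themselves favour a higher count. The count of 4 was 0 to 3 with any 1 library left out and 0 in a fit of the compared groups alone. That last fit called 2217 genes over all genes tested, against 2341 as reported. The 3 comparisons share groups, so each value of cKO-GFP enters 2 of them.

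**Figure D3:**
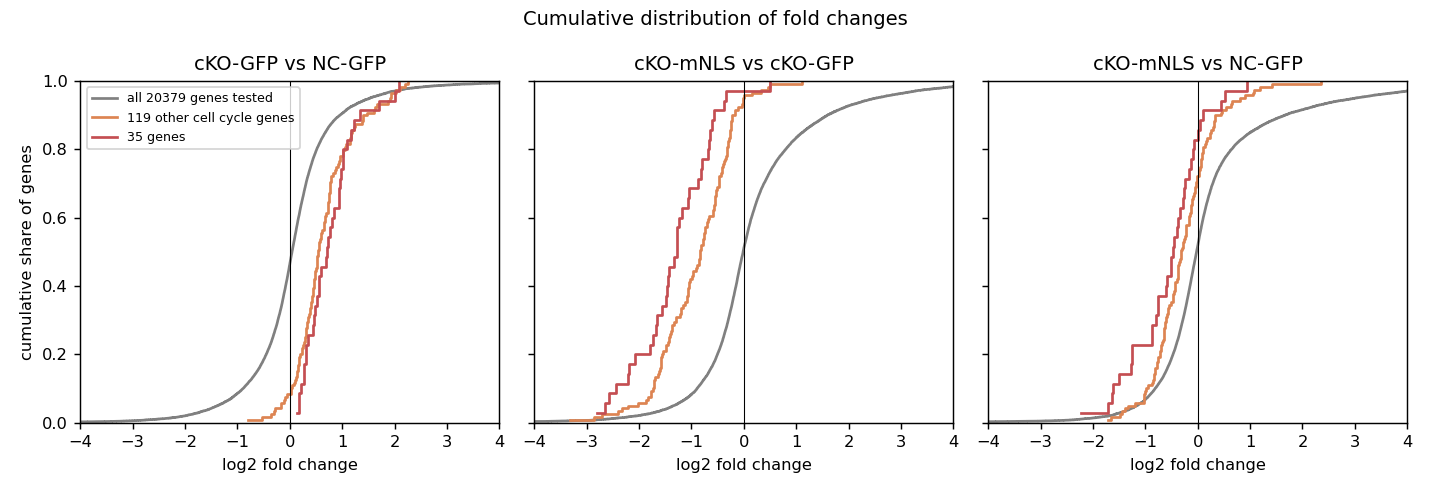
Lines give the cumulative share of genes at or below each log2 fold change for the 35 genes, the 119 other cell cycle genes and all 20379 genes tested, with the axis drawn from -4 to 4. The medians of the 35 genes are 0.71, -1.27 and -0.47 in the 3 panels, and those of all genes 0.04, -0.01 and -0.02.

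Mki67 encodes Ki-67, which coats mitotic chromosomes and is the common protein mark of cycling cells. It stood at 50.5, 52.1 and 53.4 CPM in NC-GFP, 122, 61.0 and 133 CPM in cKO-GFP and 70.8, 38.3, 44.6 and 20.9 CPM in cKO-mNLS. Each cKO-GFP library lay above each control library, while cKO-mNLS replicate 1 lay above cKO-GFP replicate 2. Mki67 fell in cKO-mNLS against cKO-GFP (-1.27, SE 0.35, adjusted p = 0.0303) while its control and cKO-mNLS ranges overlapped. The call for Mki67 was lost without any 1 of NC-GFP 1 and 2, cKO-GFP 1 and 3 and cKO-mNLS 2 and 3 (adjusted p = 0.0588 to 0.19). Top2a encodes topoisomerase II alpha, which untangles the copied chromosomes, and the gene spans chr11:98992943-99024189. It stood at 21.6, 23.7 and 18.4 CPM in NC-GFP, 50.1, 25.2 and 49.0 CPM in cKO-GFP and 15.6, 7.45, 6.40 and 6.22 CPM in cKO-mNLS. All 4 cKO-mNLS libraries lay under all control libraries, which in turn lay under all cKO-GFP libraries. Top2a fell against cKO-GFP (-2.21, SE 0.34, adjusted p = 0.00266) and against control (-1.25, SE 0.34, adjusted p = 0.0348). The call for Top2a against control was lost without any 1 of NC-GFP 1, 2 and 3, cKO-GFP 1 and 3 and cKO-mNLS 2, 3 and 4 (adjusted p = 0.0518 to 0.137). The higher level in cKO-GFP than in control was not called for either gene (Mki67 1.02, adjusted p = 0.202; Top2a 0.96, adjusted p = 0.207).

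**Figure D4:**
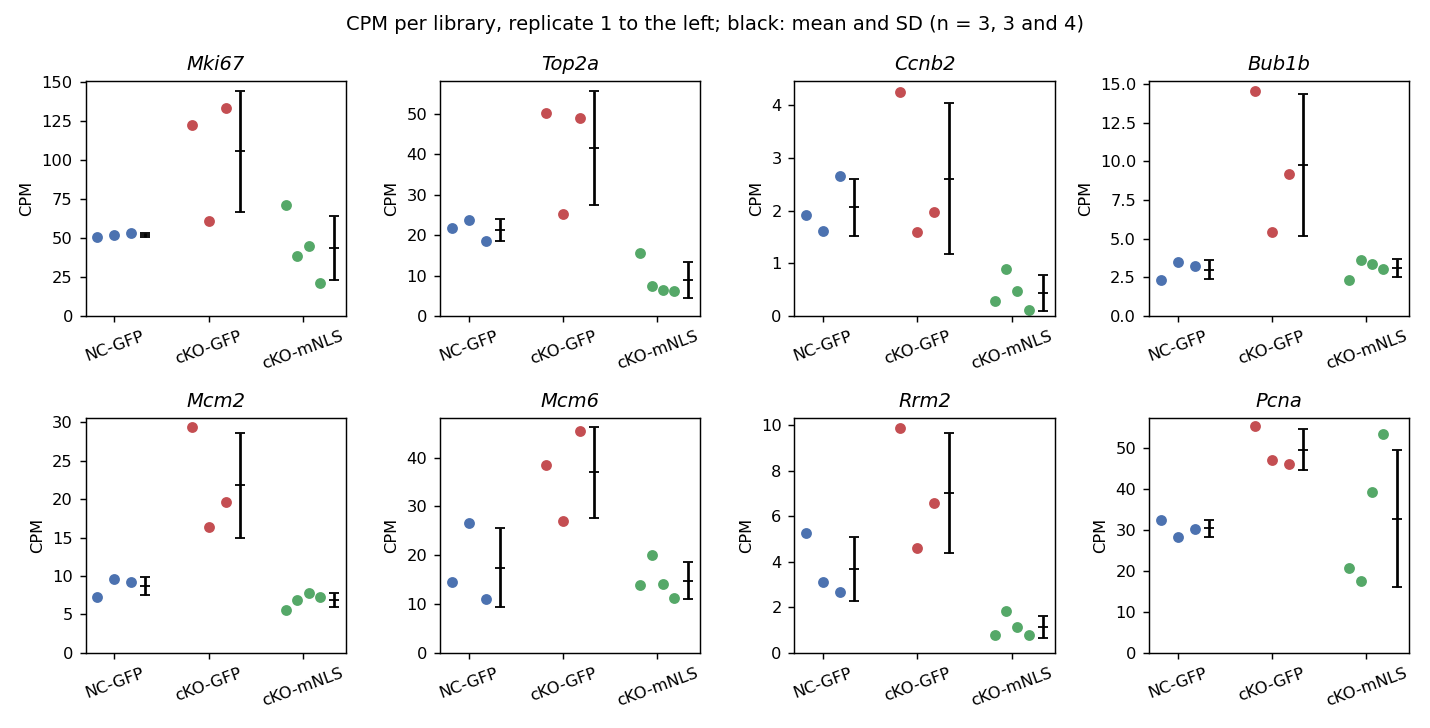
Points are CPM in each library for 8 of the genes, with replicate 1 on the left of each group, and black marks give the mean and SD (n = 3, 3 and 4). Axes start at 0. For Top2a, Ccnb2, Bub1b, Mcm2, Mcm6 and Rrm2 every cKO-mNLS point lies under every cKO-GFP point, and for Mki67 and Pcna these 2 groups overlap.

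Among the 7 cyclins and mitotic kinases, 3 fell in cKO-mNLS against cKO-GFP. Ccnb2, a B-type cyclin that activates the mitotic kinase Cdk1, stood at 1.92, 1.61 and 2.65 CPM in NC-GFP, 4.25, 1.60 and 1.97 CPM in cKO-GFP and 0.278, 0.890, 0.483 and 0.107 CPM in cKO-mNLS. The cKO-mNLS libraries were the lowest 4, and cKO-GFP and control overlapped. Ccnb2 fell against cKO-GFP (-2.58, SE 0.66, adjusted p = 0.0223) and against control (-2.23, SE 0.66, adjusted p = 0.0494). The call for Ccnb2 was lost without any 1 of cKO-GFP 1 and 3 and cKO-mNLS 1 (adjusted p = 0.0505 to 0.14). The call for Ccnb2 against control was lost without any 1 of NC-GFP 1, 2 and 3, cKO-GFP 1, 2 and 3 and cKO-mNLS 1, 3 and 4 (adjusted p = 0.0603 to 0.163). Only 3 counts stood behind its value in cKO-mNLS replicate 4. Ccna2, the cyclin A of S phase and G2, stood at 4.22, 5.78 and 2.15 CPM in NC-GFP, 8.86, 3.35 and 4.61 CPM in cKO-GFP and 2.64, 0.515, 1.41 and 0.715 CPM in cKO-mNLS. It fell against cKO-GFP (-2.08, SE 0.59, adjusted p = 0.0329), where the ranges did not overlap. The call for Ccna2 was lost without any 1 of NC-GFP 1 and 2, cKO-GFP 1 and 3 and cKO-mNLS 2, 3 and 4 (adjusted p = 0.0536 to 0.19). Aurkb, the kinase that corrects chromosome attachment to the spindle, stood at 0.167, 1.99 and 0.678 CPM in NC-GFP, 5.24, 2.35 and 3.90 CPM in cKO-GFP and 0.521, 0.0936, 1.13 and 0.429 CPM in cKO-mNLS. It fell against cKO-GFP (-2.80, SE 0.82, adjusted p = 0.0386), again with no overlap. The call for Aurkb was lost without any 1 of NC-GFP 3, cKO-GFP 1 and 3 and cKO-mNLS 1, 2 and 4 (adjusted p = 0.0545 to 0.147).

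The other 4 cyclins and kinases passed no test. Ccnb1, the main mitotic cyclin, stood at 0.334, 1.07 and 0.791 CPM in NC-GFP, 5.06, 1.88 and 2.40 CPM in cKO-GFP and 0.452, 1.36, 1.25 and 1.14 CPM in cKO-mNLS, so cKO-GFP lay above all other libraries. Its adjusted p was 0.0899 in cKO-mNLS against cKO-GFP (log2 fold change -1.57) and 0.137 in cKO-GFP against control (2.08). Plk1, a kinase of mitotic entry and spindle assembly, stood at 1.504, 1.26 and 1.98 CPM in NC-GFP, 1.97, 2.15 and 1.34 CPM in cKO-GFP and 0.556, 0.375, 0.483 and 1.22 CPM in cKO-mNLS. Its cKO-mNLS range lay under both other groups, with adjusted p = 0.0901 against cKO-GFP (-1.46) and 0.174 against control (-1.25). Cdk1, the kinase that drives entry into mitosis and the highest of these 7 by TPM (1.70 TPM), stood at 2.09, 3.41 and 1.13 CPM in NC-GFP, 5.90, 2.47 and 2.99 CPM in cKO-GFP and 2.36, 3.14, 5.23 and 1.32 CPM in cKO-mNLS. The 3 ranges overlapped for Cdk1, and its log2 fold change against cKO-GFP was -0.33 (adjusted p = 0.729), or 0.20 without cKO-GFP replicate 1. Aurka, the kinase of the spindle poles, had a log2 fold change of -1.17 (adjusted p = 0.302) in the same comparison.

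The spindle checkpoint holds anaphase until the chromosomes are attached, and the anaphase-promoting complex then marks cyclins for destruction. Bub1b, a checkpoint protein that restrains this complex, stood at 2.30, 3.49 and 3.22 CPM in NC-GFP, 14.6, 5.47 and 9.22 CPM in cKO-GFP and 2.33, 3.65, 3.38 and 3.04 CPM in cKO-mNLS. All cKO-GFP libraries lay above all others, and the control and cKO-mNLS ranges overlapped. It fell in cKO-mNLS against cKO-GFP (-1.65, SE 0.36, adjusted p = 0.0105), and its adjusted p in cKO-GFP against control was 0.0572 (1.70, SE 0.39). The call for Bub1b was lost without cKO-GFP 1 (adjusted p = 0.0884). Ube2c, the enzyme that starts the ubiquitin chains of that complex, stood at 1.55, 2.03 and 1.47 CPM in NC-GFP, 3.37, 1.68 and 2.36 CPM in cKO-GFP and 0.626, 0.468, 0.926 and 0.143 CPM in cKO-mNLS. It fell against cKO-GFP (-2.19, SE 0.59, adjusted p = 0.0279), with no overlap with either other group, and its adjusted p against control was 0.103 (-1.63). The call for Ube2c was lost without any 1 of cKO-GFP 1 and 3 and cKO-mNLS 2 (adjusted p = 0.0661 to 0.142). Bub1, a checkpoint kinase, stood at 1.00, 1.84 and 0.678 CPM in NC-GFP, 4.36, 0.718 and 1.69 CPM in cKO-GFP and 0.695, 0.515, 0.402 and 0.0357 CPM in cKO-mNLS, with 1 count in cKO-mNLS replicate 4. Its cKO-mNLS range lay under cKO-GFP, but the adjusted p was 0.069 (-2.44, SE 0.84). Cdc20, an activator of the complex, overlapped in all 3 groups, and its adjusted p against cKO-GFP was 0.5258 (-0.66; 0.14 without cKO-GFP replicate 1).

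Of the 9 genes of the spindle, kinetochore and cytokinesis, 5 fell in cKO-mNLS against cKO-GFP. Prc1, which bundles the microtubules between separating chromosomes, stood at 7.06, 5.98 and 3.56 CPM in NC-GFP, 10.4, 5.86 and 7.52 CPM in cKO-GFP and 3.37, 1.87, 1.81 and 2.11 CPM in cKO-mNLS. Its 4 cKO-mNLS values lay under all others. It fell against cKO-GFP (-1.79, SE 0.36, adjusted p = 0.00764) and against control (-1.27, SE 0.36, adjusted p = 0.0407). The call for Prc1 was lost without cKO-GFP 1 (adjusted p = 0.0529). The call for Prc1 against control was lost without any 1 of NC-GFP 1 and 2, cKO-GFP 1, 2 and 3 and cKO-mNLS 2, 3 and 4 (adjusted p = 0.0521 to 0.185). Tpx2, a spindle assembly factor that activates the kinase Aurka, stood at 7.48, 7.85 and 4.58 CPM in NC-GFP, 18.1, 6.50 and 10.9 CPM in cKO-GFP and 4.90, 4.87, 5.11 and 2.54 CPM in cKO-mNLS and fell against cKO-GFP (-1.44, SE 0.37, adjusted p = 0.0232). The call for Tpx2 was lost without any 1 of cKO-GFP 1 and 3 and cKO-mNLS 4 (adjusted p = 0.0518 to 0.183). Cenpe, the kinesin motor of the kinetochore, stood at 8.65, 8.89 and 8.19 CPM in NC-GFP, 25.9, 11.1 and 13.8 CPM in cKO-GFP and 10.2, 6.09, 6.72 and 5.18 CPM in cKO-mNLS. It fell against cKO-GFP (-1.27, SE 0.31, adjusted p = 0.0185), with cKO-GFP above all control and all cKO-mNLS libraries. The call for Cenpe was lost without any 1 of cKO-GFP 1 and 3 and cKO-mNLS 2 (adjusted p = 0.0547 to 0.165).

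Kif11, the motor that pushes spindle poles apart, stood at 3.97, 4.40 and 5.14 CPM in NC-GFP, 16.2, 7.22 and 8.35 CPM in cKO-GFP and 4.62, 1.17, 5.43 and 1.39 CPM in cKO-mNLS. It fell in cKO-mNLS against cKO-GFP (-1.74, SE 0.52, adjusted p = 0.0412), and cKO-GFP lay above all other libraries. The call for Kif11 was lost without any 1 of NC-GFP 1, 2 and 3, cKO-GFP 1 and 3 and cKO-mNLS 2 and 4 (adjusted p = 0.0596 to 0.232). Cenpf, a large kinetochore protein, stood at 7.65, 13.2 and 10.8 CPM in NC-GFP, 30.1, 8.22 and 14.3 CPM in cKO-GFP and 9.53, 5.67, 6.80 and 3.11 CPM in cKO-mNLS. It also fell (-1.48, SE 0.44, adjusted p = 0.0411), but cKO-GFP replicate 2 lay under cKO-mNLS replicate 1. The call for Cenpf was lost without any 1 of NC-GFP 1, 2 and 3, cKO-GFP 1 and 3 and cKO-mNLS 2, 3 and 4 (adjusted p = 0.0614 to 0.319). The other 4 passed no test in that comparison. Kif20a, a motor of cytokinesis, was at 0.965 to 2.21 CPM in cKO-mNLS, below its 2.28 to 4.53 CPM in cKO-GFP and 2.55 to 3.14 CPM in control (adjusted p = 0.119 against cKO-GFP). Kif23, Nusap1 and Birc5, which act in cytokinesis, on spindle microtubules and in the chromosomal passenger complex, had log2 fold changes of -0.82, -1.07 and -1.43 with adjusted p of 0.481, 0.236 and 0.391. Birc5 had 0 counts in cKO-mNLS replicate 4, where the limit that a count of 0 allows is 0.107 CPM.

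The replicative helicase is a ring of MCM proteins, loaded at each origin before S phase. Mcm2, a subunit of that ring, spans chr6:88883474-88898780 and stood at 7.31, 9.54 and 9.15 CPM in NC-GFP, 29.4, 16.4 and 19.6 CPM in cKO-GFP and 5.53, 6.88, 7.81 and 7.22 CPM in cKO-mNLS. All cKO-GFP libraries lay above all control and all cKO-mNLS libraries, which overlapped. Mcm2 rose in cKO-GFP against control (1.33, SE 0.26, adjusted p = 0.0267) and fell in cKO-mNLS against cKO-GFP (-1.67, SE 0.24, adjusted p = 0.00198). The rise of Mcm2 against control lost its call without any 1 of NC-GFP 1, 2 and 3 and cKO-GFP 1 and 3 (adjusted p = 0.089 to 0.126), while its fall in cKO-mNLS against cKO-GFP kept its call in each of these fits. Mcm3 (chr1:20802968-20820312), a second subunit, stood at 17.97, 25.6 and 22.1 CPM in NC-GFP, 45.4, 27.6 and 41.4 CPM in cKO-GFP and 14.8, 12.6, 15.3 and 20.7 CPM in cKO-mNLS. It followed the same order, with cKO-GFP above all others, and fell in cKO-mNLS against cKO-GFP (-1.27, SE 0.22, adjusted p = 0.00424). Its adjusted p in cKO-GFP against control was 0.125 (0.80, SE 0.24).

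Mcm6 stood at 14.6, 26.6 and 11.1 CPM in NC-GFP, 38.5, 27.0 and 45.5 CPM in cKO-GFP and 14.0, 20.04, 14.0 and 11.2 CPM in cKO-mNLS, again with cKO-GFP above all others, and fell in cKO-mNLS against cKO-GFP (-1.32, SE 0.30, adjusted p = 0.0134). The call for Mcm6 was lost without either of cKO-GFP 1 and 3 (adjusted p = 0.0571 to 0.089). Mcm5 stood at 7.06, 7.89 and 4.86 CPM in NC-GFP, 21.2, 8.70 and 14.6 CPM in cKO-GFP and 5.18, 9.69, 5.92 and 4.50 CPM in cKO-mNLS and fell as well (-1.23, SE 0.35, adjusted p = 0.0333), although cKO-mNLS replicate 2 lay above cKO-GFP replicate 2. The call for Mcm5 was lost without any 1 of NC-GFP 1 and 2, cKO-GFP 1 and 3 and cKO-mNLS 1, 3 and 4 (adjusted p = 0.0588 to 0.228). In cKO-GFP against control the adjusted p was 0.126 for Mcm6 (1.08) and 0.151 for Mcm5 (1.16). Mcm4 and Mcm7 did not pass in any comparison. In cKO-mNLS against cKO-GFP their log2 fold changes were -0.68 (adjusted p = 0.0639) and -0.37 (adjusted p = 0.377), and that of Mcm7 was 0.00 without cKO-GFP replicate 1. By CPM Mcm7 had a mean of 21.3 in cKO-GFP and 17.6 in control, but by TPM 6.19 and 6.96, so its direction there depends on the unit. The same held for Kif20a, Kif23 and Nusap1, whose mean TPM was 0.548, 1.39 and 0.431 in cKO-GFP and 0.631, 1.54 and 0.461 in control. In cKO-mNLS the mean TPM of Mcm7 was 7.46 and that of Ccne2 0.756, above the 6.19 and 0.499 of cKO-GFP, although both fold changes were below 0.

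Pcna, the highest of the 35 by TPM, stood at 32.5, 28.4 and 30.3 CPM in NC-GFP, 55.5, 47.2 and 46.2 CPM in cKO-GFP and 20.8, 17.6, 39.2 and 53.5 CPM in cKO-mNLS. All cKO-GFP libraries lay above all control libraries, but cKO-mNLS spread over 17.6 to 53.5 CPM and overlapped both. It passed no test, and its adjusted p in cKO-mNLS against cKO-GFP was 0.236 (-0.60). None of the 7 helicase and clamp genes was called in cKO-mNLS against control, and their median there was -0.24.

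Ribonucleotide reductase makes the deoxynucleotides for DNA. Rrm2, its small subunit, spans chr12:24708241-24714146 and is made in S phase. It stood at 5.26, 3.10 and 2.65 CPM in NC-GFP, 9.88, 4.63 and 6.58 CPM in cKO-GFP and 0.765, 1.83, 1.13 and 0.786 CPM in cKO-mNLS. The 4 cKO-mNLS libraries lay under all others, and cKO-GFP and control overlapped. Rrm2 fell against cKO-GFP (-2.65, SE 0.44, adjusted p = 0.0035) and against control (-1.71, SE 0.44, adjusted p = 0.0267). The call for Rrm2 against control was lost without any 1 of NC-GFP 1 and 2 and cKO-mNLS 1, 3 and 4 (adjusted p = 0.0515 to 0.138). Rrm1, the large subunit, which is present through the cycle, stood at 24.7, 24.7 and 24.0 CPM in NC-GFP, 31.8, 23.2 and 28.4 CPM in cKO-GFP and 17.3, 17.9, 17.9 and 18.4 CPM in cKO-mNLS. It fell against cKO-GFP by a smaller step (-0.64, SE 0.15, adjusted p = 0.0143), and its narrow cKO-mNLS range lay under both other groups (adjusted p = 0.0729 against control, at -0.45). The call for Rrm1 was lost without either of cKO-GFP 1 and 3 (adjusted p = 0.0836 to 0.125). Tyms, which makes thymidylate, did not pass (-0.88, adjusted p = 0.223 against cKO-GFP).

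No gene of the S phase entry group was called. Hells, a chromatin remodeller of dividing cells and the highest of these 3 by TPM (2.10 TPM), stood at 10.2, 7.47 and 6.89 CPM in NC-GFP, 15.3, 6.10 and 18.1 CPM in cKO-GFP and 7.51, 7.54, 9.94 and 5.18 CPM in cKO-mNLS. Its adjusted p in cKO-mNLS against cKO-GFP was 0.148 (-0.80). Ccne1, a cyclin that starts S phase with Cdk2, stood at 2.05, 1.23 and 0.734 CPM in NC-GFP, 2.81, 0.918 and 1.73 CPM in cKO-GFP and 1.46, 5.43, 2.37 and 1.07 CPM in cKO-mNLS. It was the 1 gene of the 35 with a fold change above 0 in that comparison (0.50, adjusted p = 0.658), and without cKO-mNLS replicate 2 the value was -0.12. Ccne2, its relative, had a log2 fold change of -0.58 (adjusted p = 0.4997).

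The cKO-GFP libraries differed among themselves. Replicate 1 was the highest of all 10 libraries for 29 of the 35 genes, replicate 3 for 4 and replicate 2 for 1. Within the group, replicate 2 was the lowest for 30 genes. Of the cKO-mNLS libraries, replicate 4 was the lowest of all 10 for 15 genes and replicate 2 for 9. Replicate 4 was low for Mki67 (20.9 CPM) and Tpx2 (2.54 CPM) but highest in its group for Pcna (53.5 CPM).

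The 15 genes that fell in cKO-mNLS against cKO-GFP and had a promoter entry all held a CCAAT box, as did 9 of the 14 that were not called. A CHR lay in 7 of the 15 and in 3 of the 14, and an E2F match in 2 of the 15 and in 3 of the 14. Of the printed promoters, Top2a has 6 CCAAT boxes and 4 CHR matches, and Cdk1, which was not called, has 3 and 2 with 1 E2F match. Rrm2 and Prc1, which fell in 2 comparisons, have 1 CCAAT box each and neither other motif within the window. Each window ends at the start of the gene, so motifs across or after the start were not searched.

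The counts of some genes are uncertain because another gene overlaps them on the opposite strand and the use of strand in counting is not given in the sources used here. Among the genes that fell, Ccna2 (885 counts over all libraries) overlaps Exosc9 (4875 counts), Prc1 (1263) overlaps Rccd1 (2248) and Ube2c (369) overlaps Tnnc2 (6). Among the others, Cdc20, Kif20a, Nusap1, Mcm7 and Ccne2 overlap Elovl1, Cdc23, Oip5, Cops6 with Ap4m1, and Ints8. The processed pseudogene Pcna-ps2 held 517 counts in all, and Ccnb1-ps and Ccnb2-ps held 11 and 33.

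The cell cycle genes outside the 35 showed a smaller shift. Of 119 others, all of them tested, 26 fell in cKO-mNLS against cKO-GFP (21.8%, against 7.13% of all genes tested) and 0 rose, with a median log2 fold change of -0.83. At an unadjusted p under 0.05, 62 were lower and 1 higher, against 2888 lower and 3152 higher of the 20379 genes tested. Hmgb2, a chromatin protein of dividing cells, stood at 20.01, 22.4 and 19.8 CPM in NC-GFP, 48.6, 32.95 and 55.7 CPM in cKO-GFP and 19.9, 19.0, 11.1 and 17.5 CPM in cKO-mNLS, and cKO-GFP lay above all other libraries. It fell there (-1.44, SE 0.22, adjusted p = 0.00268) and rose in cKO-GFP against control (1.14, SE 0.24, adjusted p = 0.0427). Racgap1, which acts in cytokinesis, fell (-1.37, SE 0.26, adjusted p = 0.00603), as did the condensin subunits Smc4 (-1.06, SE 0.21, adjusted p = 0.00706) and Smc2 (-0.97, SE 0.19, adjusted p = 0.00715). Cdt1, which loads the MCM helicase at origins, fell too (-1.54, SE 0.32, adjusted p = 0.00926). Hmgb2 and Racgap1 kept the call in cKO-mNLS against cKO-GFP in all 10 fits with 1 library left out, while Smc4 lost it without cKO-GFP replicate 3 (adjusted p = 0.0553) and Smc2 and Cdt1 lost it without cKO-GFP replicate 1 (0.0595 and 0.0599). In cKO-GFP against control, 2 of the 119 rose (1.68%, against 0.53% of all genes tested), Hmgb2 and the maintenance methyltransferase Dnmt1 (0.66, SE 0.14, adjusted p = 0.0433). The call for Hmgb2 in cKO-GFP against control was lost without any 1 of NC-GFP 1, 2 and 3, cKO-GFP 1 and 3 and cKO-mNLS 2 and 4 (adjusted p = 0.0534 to 0.228). That for Dnmt1 was lost without any 1 of NC-GFP 1, 2 and 3, cKO-GFP 1 and 3 and cKO-mNLS 2, 3 and 4 (adjusted p = 0.0547 to 0.222). At an unadjusted p under 0.05, 20 were higher and 0 lower, against 1982 higher and 1443 lower of the 20379 genes tested, and the median was 0.55.

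In cKO-mNLS against control the median of the 119 was -0.31. Of them 2 rose (1.68%, against 8.23% of all genes tested) and 1 fell (0.84%, against 3.25%), so these genes were called less often than all genes. Cdkn1c, an inhibitor of cyclin-dependent kinases, stood at 6.10, 2.64 and 4.46 CPM in NC-GFP, 4.92, 15.6 and 10.8 CPM in cKO-GFP and 38.7, 13.8, 18.1 and 19.7 CPM in cKO-mNLS and rose (2.36, SE 0.48, adjusted p = 0.0083). Each cKO-mNLS library lay above each control library, and the call was kept in all 10 fits with 1 library left out. Dut, which removes dUTP before replication, rose as well (0.91, SE 0.26, adjusted p = 0.0439). The call for Dut against control was lost without any 1 of NC-GFP 1, 2 and 3, cKO-GFP 1, 2 and 3 and cKO-mNLS 1, 2 and 3 (adjusted p = 0.0531 to 0.175). Cdkn1b, the inhibitor p27, stood at 82.4, 74.5 and 80.5 CPM in NC-GFP, 82.2, 83.6 and 96.7 CPM in cKO-GFP and 60.7, 61.6, 62.7 and 57.6 CPM in cKO-mNLS. It fell against control (-0.38, SE 0.11, adjusted p = 0.0458) and against cKO-GFP (-0.53, SE 0.11, adjusted p = 0.00945), and its 4 cKO-mNLS libraries lay under all others. The call against control was lost in each of the 10 fits with 1 library left out (adjusted p = 0.059 to 0.191), and that against cKO-GFP without cKO-GFP replicate 3 (0.0821). Cdkn1a, the inhibitor p21, did not pass in cKO-mNLS against control (0.80, adjusted p = 0.0698) or against cKO-GFP (0.34, adjusted p = 0.419).

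Markers of other cell types moved in the same comparisons, and their part in the results was not tested. In cKO-mNLS against cKO-GFP, 11 of 12 T lymphocyte markers fell, where 7.13% of all genes tested fell and 8.93% rose. Their summed level was 86.8 to 181 CPM in NC-GFP, 176 to 485 CPM in cKO-GFP and 26.2 to 103 CPM in cKO-mNLS. Cd3e, part of the T cell receptor complex, was at 22.7 to 76.8 CPM in cKO-GFP and 2.58 to 19.1 CPM in cKO-mNLS, and Cd3d at 6.43 to 18.5 and 1.09 to 4.03 CPM. Of 12 macrophage and monocyte markers 7 fell, with sums of 2612 to 4021, 8821 to 15915 and 1390 to 5909 CPM. In cKO-GFP against control, 0 of the 12 T lymphocyte and 0 of the 12 macrophage and monocyte markers were called. Ccr2, the chemokine receptor of invading monocytes, was at 33.4 to 148 CPM in cKO-GFP and 6.64 to 29.8 CPM in cKO-mNLS, and Ly6c2 at 17.9 to 149 and 5.83 to 26.3 CPM. Of 12 microglia markers 7 fell, with sums of 6240 to 8204, 5900.0 to 8667 and 2476 to 6081 CPM. The microglial receptor P2ry12 was at 147 to 299 CPM in cKO-GFP and 46.4 to 155 CPM in cKO-mNLS, and Tmem119 at 118 to 223 and 47.4 to 82.2 CPM. No list had a marker at 0 in every library.

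Of the red cell and neutrophil list, 9 of 10 tested markers fell and 6 of 12 were at 0 in every cKO-mNLS library, among them Alas2, S100a8 and S100a9. Its sums were 25.0 to 175, 97.6 to 694 and 0.452 to 9.27 CPM, and the haemoglobin genes Hba-a1 and Hba-a2 were at 16.0 to 138 and 22.9 to 207 CPM in cKO-GFP against 0 to 3.14 and 0.0805 to 3.18 CPM in cKO-mNLS. Within cKO-GFP, replicate 1 was highest and replicate 2 lowest for the sum of the 35 genes, and the microglia markers had the same order (8667, 5900.0 and 8359 CPM in replicates 1, 2 and 3). Oligodendrocyte precursor markers (855, 780 and 599 CPM) and neural progenitor markers (134, 129 and 103 CPM) were also highest in replicate 1 but lowest in replicate 3. The T lymphocyte markers were lowest in replicate 1 (176, 273 and 485 CPM), the macrophage and monocyte markers were at 8821, 8998 and 15915 CPM, and the red cell and neutrophil markers were highest in replicate 2 (156, 694 and 97.6 CPM). Within cKO-mNLS the 35 genes and the microglia markers did not share an order. Replicates 1 to 4 held 273, 213.0, 252 and 216 CPM of the 35 genes and 2608.5, 2476, 4397 and 6081 CPM of microglia markers.

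Excitatory neuron markers moved the other way, with 10 of 12 rising from cKO-GFP to cKO-mNLS (8.93% of all genes tested). Their sums were 394 to 420, 322 to 477 and 964 to 2385 CPM. Snap25, a protein of vesicle release, was at 5.62 to 17.5 CPM in cKO-GFP and 87.7 to 287 CPM in cKO-mNLS. Prox1 and Tubb3 did not pass there (0.43 and 0.25, adjusted p = 0.321 and 0.581). Among 13 oligodendrocyte precursor markers 1 fell and 0 rose (sums of 931 to 1022, 599 to 855 and 517 to 793 CPM), and Pdgfra and Cspg4 did not pass (0.45 and 0.44, adjusted p = 0.629 and 0.490). Gpr17, a receptor of differentiating precursors, was the one that fell (-1.36, adjusted p = 0.0323), at 3.87 to 14.7 CPM in NC-GFP, 26.4 to 44.5 CPM in cKO-GFP and 9.74 to 18.98 CPM in cKO-mNLS. In cKO-GFP against control Gpr17 rose (2.03, adjusted p = 0.0402) and so did Tnr (2.66, adjusted p = 0.00820), Ptprz1 fell (-1.77, adjusted p = 0.0108), and the list had a median of 0.96. Of 11 tested neural progenitor markers 2 rose and 3 fell (sums of 142 to 168, 103 to 134 and 102 to 118 CPM). Nes (0.92, adjusted p = 0.0419) and Neurod1 (2.76, adjusted p = 0.0282) rose. Eomes (-2.13, adjusted p = 0.0181), Igfbpl1 (-1.90, adjusted p = 0.0198) and Sox11 (-0.93, adjusted p = 0.0411) fell, and Sox2 did not pass (-0.14, adjusted p = 0.764). Of 12 astrocyte markers 3 rose, and 7 had fallen in cKO-GFP against control (1.1% of all genes tested), among them Gja1 (-1.92, adjusted p = 0.00623). Aqp4 did not pass there (-1.49, adjusted p = 0.0961). The oligodendrocyte marker Mbp did not pass in any comparison, nor did any marker of endothelial and mural cells, such as Cldn5 and Pecam1.

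**Figure D5:**
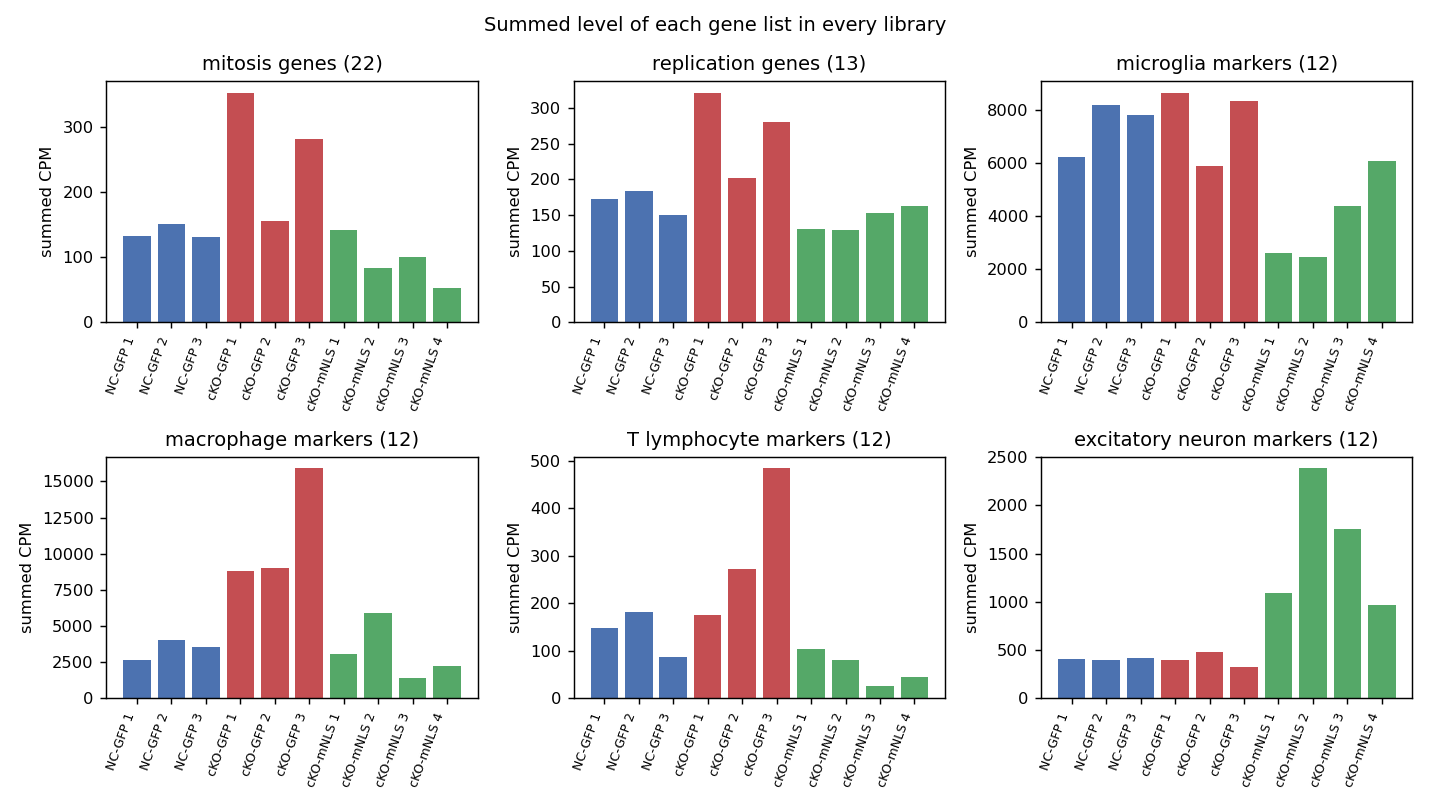
Bars give the summed CPM of a gene list in each library, coloured by group, with axes from 0. The panels show the 22 mitosis genes, the 13 replication genes and the marker lists of microglia, macrophages and monocytes, T lymphocytes and excitatory neurons. Neuron markers reach 964 to 2385 CPM in cKO-mNLS and at most 477 CPM elsewhere, while the immune lists are lower in cKO-mNLS than in cKO-GFP with overlap for microglia.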

How the data were processed

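The 10 libraries hold RNA of sorted GFP-positive cells, grouped by the labels, which do not say which cell types the sort held. Per the file headers, the deposited values are estimated counts and TPM. The authors' estimated counts carry no normalization, and 5.84% were not whole. The authors' TPM, scaled for length and library total, served only to compare levels between genes. The submitters' processing notes name DRAGEN and GRCm38/mm10. Not given in the sources used here were versions, annotation release, counting settings and strand use. Coordinates of genes are those of the deposited table.

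Counts were rounded. The group-wise filter of edgeR left 20379 genes, which held 99.8% or more of the counts of every library. All 3 groups entered 1 quasi-likelihood model (edgeR 4.0.16 in R 4.3.3; F test, TMM scaling, robust estimation, 7 residual degrees of freedom), and Benjamini-Hochberg adjustment ran over all tested genes. The common biological coefficient of variation was 0.406. Genes with an adjusted p under 0.05 were called. The SE was derived from the test, as the absolute log2 fold change divided by the square root of the F statistic. The floor for a value of 0 is 3 counts and covers counting error only. The alternatives were DESeq2 size factors and the DESeq2 Wald test (1.42.0), upper-quartile scaling, voom with quality weights (limma 3.58.1), no or a stricter low-count filter, the compared groups alone, a replicate block, and fits that leave out 1 library. The steps were tested on simulated counts. At each fold, 100 genes above a floor on the mean count were changed among 19720 to 19749 tested. Of genes changed there by a log2 fold of 1, 29% to 38% were called, and of those changed by 2, 66% to 77%. Each comparison of the real counts gave more calls than the simulation, so these shares need not carry over. Unchanged genes made up 1.9% to 5% of the calls. A gene not called can therefore still differ. No libraries within a group were near-identical.

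The 35 genes, the 119 other cell cycle genes and the 10 marker lists were chosen with earlier results of these data known. The rule for names took all 35 genes, with every library value where a test was passed, and for each role the gene of highest mean TPM. It also took the genes of the 119 with up to the 6 smallest p-values among the calls of a comparison, the inhibitors Cdkn1a, Cdkn1b and Cdkn1c, and the first 2 markers of each list. A marker of the oligodendrocyte list is not reported here, and that list is described by Mbp alone. Alas2, S100a8, S100a9, Prox1, Map2, Tubb3, Gpr17, Tnr, Ptprz1, Neurod1, Eomes, Igfbpl1 and Sox11 and the library values of Ccnb1, Plk1, Bub1 and Ccne1 were picked after their values were seen. Motifs were searched in RefSeq promoters.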

Additional observations from a re-analysis of the deposited data

Results flagged for a closer look

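Among 35 groups of 4 libraries (cKO-mNLS, 1 per gene), 2 held a library far from the other 3, where chance alone flags about 1 in 20 groups. Top2a stood at 15.6 CPM in cKO-mNLS replicate 1 and at 6.22 to 7.45 CPM in the other 3. Tpx2 stood at 2.54 CPM in cKO-mNLS replicate 4 and at 4.87 to 5.11 CPM in the other 3. Both fell in cKO-mNLS against cKO-GFP, and the call for Tpx2 was lost without cKO-mNLS replicate 4 (adjusted p = 0.0518).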

How the results depend on the processing

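In cKO-mNLS against cKO-GFP, 18 of the 35 genes were called as reported, 15 to 21 under the other scalings, filters, DESeq2 and voom, 11 with only the compared groups and 4 to 21 with 1 library left out. The median moved between -1.44 and -0.81, and the ranges of 17 to 25 genes did not overlap, with 1 library left out. Ranges narrow when a library is left out, so a rise in the genes without overlap is no measure of stability. Of the 18 calls, 4 (Top2a, Mcm2, Mcm3 and Rrm2) were kept under every alternative. The fold changes of 4 uncalled genes changed sign: with 1 library left out, Cdk1 lay between -0.74 and 0.20, Cdc20 between -1.08 and 0.14, Mcm7 between -0.54 and 0.0038 and Ccne1 between -0.12 and 1.02. In cKO-GFP against control, 1 gene was called as reported, 5 with DESeq2, 10 with voom, 2 without the filter, 2 with the stricter filter, 3 with only the compared groups and 0 to 3 with 1 library left out (median 0.23 to 0.95; 11 to 20 genes without overlap). In cKO-mNLS against control, 4 were called as reported, 7 with DESeq2, 1 with voom, 1 without the filter, 0 with only the compared groups and 0 to 3 with 1 library left out (median -0.67 to -0.32; 8 to 15 genes without overlap).

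Over all genes tested, 333 were called in cKO-GFP against control, 1391 with DESeq2, 1506 with voom, 754 with only the compared groups and 61 to 755 with 1 library left out. The count was 3273 in cKO-mNLS against cKO-GFP (1178 to 3629 with 1 left out, 2344 with only the compared groups). In cKO-mNLS against control it was 2341 (1217 to 2603 with 1 left out, 3567 with DESeq2, 2217 with only the compared groups). Of the 119 other cell cycle genes, 26 were called in cKO-mNLS against cKO-GFP, 44 with DESeq2, 40 with voom and 5 to 27 with 1 library left out. In cKO-GFP against control it was 2, with 0 under DESeq2 size factors, 1 under upper-quartile scaling, 1 without the filter, 7 with DESeq2, 11 with voom and 0 to 2 with 1 library left out. In cKO-mNLS against control it was 3, with 9 for DESeq2, 5 for voom and 1 to 6 with 1 library left out. The causes were not tested.

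Deviations from the group means correlated at -0.211 to 0.0802 over 9 pairs of libraries of equal replicate number and at -0.207 to 0.233 over 24 pairs of unequal number. Equal numbers thus showed no closer correlation, but this cannot tell whether such libraries were handled together. With the replicate number as a block, 0 of the 35 genes were called in cKO-GFP against control, 9 in cKO-mNLS against cKO-GFP and 0 in cKO-mNLS against control. Over all genes the same block gave 176, 2648 and 1953 calls in these comparisons, in the same order. Among the 119 it gave 0, 11 and 4 calls. Some mitotic genes had few counts in a library, and how that bears on the calls was not tested.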
